A study of Homo sapiens with 20 samples.

Results

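The response to a gamma-secretase inhibitor of 10 human lines of T-cell acute lymphoblastic leukemia, called T-ALL, was compared between 5 inhibitor-sensitive lines (ALL-SIL, CUTLL1, DND41, HPB-ALL and KOPTK1) and 5 inhibitor-resistant lines (CCRF-CEM, MOLT3, P12-ICHIKAWA, PF382 and RPMI8402). All 20 arrays of the series entered the comparison, 1 after vehicle (DMSO) and 1 after 100 nM of the inhibitor CompE from each line, both at 72 h. Per the series' design text, every line carries activating NOTCH1 mutations, so the resistant lines share the mutated pathway with the sensitive ones. The labels do not state the classes, which were taken as given, and growth was not measured in these data. For each gene, the change of a line is log2(signal + 16) in CompE minus DMSO, and the difference is the mean change of the sensitive lines minus the mean change of the resistant lines. A positive difference means a higher change in the sensitive lines, whichever way each class moved.

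Gamma-secretase is the membrane protease that cuts the NOTCH1 receptor and frees its intracellular domain, which enters the nucleus and switches on genes such as HES1 and MYC. Inhibitors of the protease therefore shut off the transcription that NOTCH1 drives in T-ALL cells. Some NOTCH1-mutant lines then leave the cell cycle and shrink, while others go on dividing.

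Each line supplied 1 array per condition, and the labels do not say whether the cultures were separate, so the lines are the replicates and the p-values measure the spread between lines. Among the vehicle arrays, each line's CompE array was closest to that of its own line (r across genes of 0.918 to 0.984, against at most 0.912 with the vehicle array of any other line). T-lineage markers were above the filter on low signal for 10 of 10 genes, with summed signals between 9470 and 23700 over all groups, while 0 myeloid and 0 erythroid markers passed that filter. Of 5 epithelial and 5 fibroblast markers, 1 and 3 passed it, with summed signals of at most 263 and 309, and the 3 fibroblast markers had a median difference of -0.58; their part in the results was not tested. B-cell markers, with 3 of 8 genes above it, summed to between 135 and 2650 in the sensitive lines and between 177 and 374 in the resistant ones. The 3' to 5' signal ratio of ACTB, which climbs when RNA is degraded, went from 3.32 in DMSO to 9.76 in CompE in KOPTK1 and stayed at or below 1.99 on the other 18 arrays. Its log2 change was 0.494 ± 0.635 in the sensitive lines and 0.166 ± 0.188 in the resistant ones (SD, n = 5 each; exact permutation test over lines, two-sided p = 0.349), so results are also given without KOPTK1. In CCRF-CEM, MOLT3 and P12-ICHIKAWA, all resistant, the growth medium given for DMSO is not the one given for all other arrays. The entry is the name of a cell line and may be an error. Whether the medium of these 3 lines differed is not known, and its part in the results cannot be told apart from their class except by leaving them out.

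The sensitive lines showed more genes with a change of 1 or more on the log2 scale, but not beyond the spread between lines. The counts were 193 in ALL-SIL, 224 in CUTLL1, 651 in DND41, 524 in HPB-ALL and 1229 in KOPTK1. In the resistant class they were 97 in CCRF-CEM, 437 in MOLT3, 167 in P12-ICHIKAWA, 262 in PF382 and 226 in RPMI8402. KOPTK1, the line with the high ACTB ratio, was the highest, and MOLT3 lay above ALL-SIL and CUTLL1, so the classes overlapped. The means were 564 ± 420 and 238 ± 128 genes (SD, n = 5 each; exact permutation test, two-sided p = 0.103, and 0.206 adjusted over the 4 measures tested this way). Without KOPTK1 the sensitive mean was 398 ± 225, with an exact p of 0.214.

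**Figure D1:**
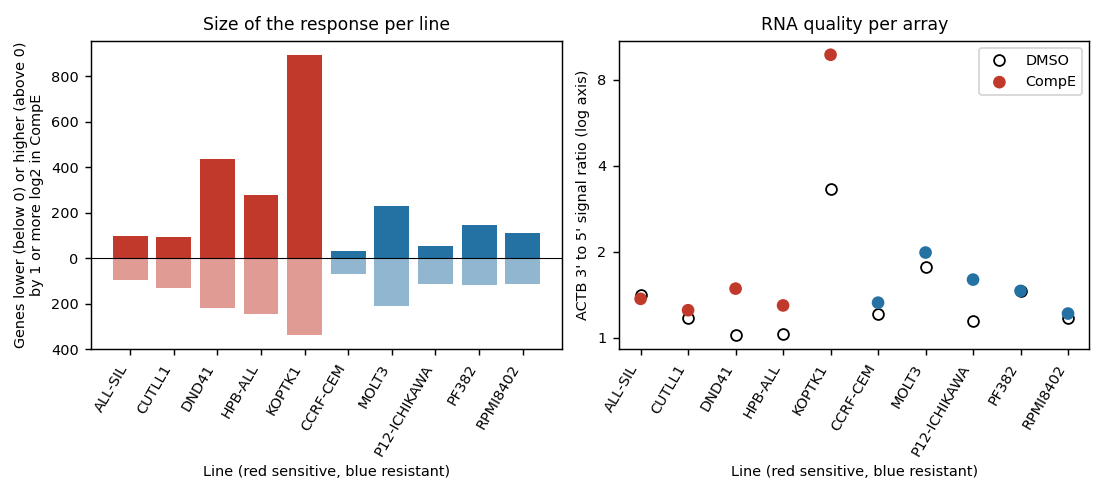
Left, for each line, the number of genes higher (dark, above 0) or lower (pale, below 0) by 1 or more on the log2 scale in CompE. Right, the ACTB 3' to 5' signal ratio of each array on a log axis, open for DMSO and filled for CompE, with sensitive lines in red and resistant lines in blue; KOPTK1 has both the most changed genes, 1229, and the highest ratio, 9.76.

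Of 7695 genes tested, 0 passed the adjusted threshold for a different response of the classes (limma, cell line as block, Benjamini-Hochberg adjusted p under 0.05), and the lowest adjusted p was 0.145, for AQP3. At an unadjusted p under 0.05 there were 660 genes (8.58%), of which 379 (4.93%) had the higher change in the sensitive lines and 281 (3.65%) the lower. An exact permutation test per gene placed 639 genes under the same unadjusted level and 0 after adjustment. For 131 genes (1.70%) all 5 sensitive changes lay on one side of all 5 resistant changes, 64 of them higher (0.832%) and 67 lower (0.871%) in the sensitive lines. On simulated data of the same size the test recovered 3.6% of true differences of 0.5, 51.6% of those of 1 and 84% of those of 1.5 on the log2 scale, so differences of 0.5 were mostly below what 5 lines per class could show. The simulated lines of a class shared the same difference, with independent noise of equal spread. In the data the SD of all changes ran from 0.327 in CCRF-CEM to 0.726 in KOPTK1, so these shares may not hold for the measured lines. Within the classes, 322 genes rose (4.18%) and 241 fell (3.13%) in the sensitive lines at an adjusted p under 0.05, and 0 did so in the resistant lines, where 855 genes had an unadjusted p under 0.05. That contrast is not a test of the difference between classes, and the test of the difference itself is the one that found 0 genes. The differences of single genes are therefore values that did not pass the adjusted threshold with all 10 lines.

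AQP3, a channel for water and glycerol, was the gene with the lowest p. Its signal went from 110 to 238 in ALL-SIL, from 2232 to 4617 in CUTLL1, from 83.9 to 231 in DND41, from 1846 to 3651 in HPB-ALL and from 864 to 1453 in KOPTK1. In the resistant lines it went from 421 to 347 in CCRF-CEM, from 455 to 609 in MOLT3, from 785 to 783 in P12-ICHIKAWA, from 255 to 226 in PF382 and from 82.6 to 61.8 in RPMI8402. All sensitive lines were higher in CompE at very different starting levels, MOLT3 was the only resistant line clearly above its vehicle, and the changes of the classes did not overlap. The difference was 1.09 ± 0.18 (SE, n = 5 lines against 5; 95% interval 0.71 to 1.47; limma adjusted p = 0.145; exact permutation p = 0.00794, the smallest that 5 against 5 can give). The other probe sets of AQP3 gave differences of 0.67 and 0.51. Within the sensitive lines AQP3 rose by 1.01 ± 0.13 (adjusted p = 0.00172), and in the resistant lines its change was -0.07 ± 0.13.

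The other genes whose sensitive changes all lay above the resistant ones, taken in order of p, included regulators of transcription and signalling. CLIP3, a protein of membrane trafficking that binds AKT, changed by 0.51 to 1.70 in the sensitive lines and by -0.31 to 0.09 in the resistant ones, a difference of 1.23 ± 0.27. CST3, the secreted protease inhibitor cystatin C, ranged from 0.49 to 1.19 in the sensitive class and from -0.77 to -0.05 in the resistant class, so the classes lay on opposite sides of 0, with a difference of 1.15 ± 0.26. The CST3 signal was also low, at 7.8 in ALL-SIL, 7.7 in DND41 and 13.6 in KOPTK1 in DMSO. In MOLT3 it went from 18.3 to 4.1. H2AC6, a replication-dependent histone H2A gene, differed by 1.11 ± 0.26, with CCRF-CEM (0.53) and RPMI8402 (0.65) close below KOPTK1 (0.70). SERTAD2, a cofactor of E2F transcription, differed by 0.64 ± 0.15, and TRAF3IP3, an adaptor expressed in lymphocytes, by 0.66 ± 0.17. The adjusted p of CLIP3, CST3, H2AC6 and SERTAD2 was 0.316, and that of TRAF3IP3 was 0.367. Of the rest of the 12 named, ZNF264, ANKRD36B, WBP1L, UCN and ZNF512B also had adjusted p between 0.316 and 0.406. SRRM2, a splicing factor, is uncertain, since its other probe sets gave differences of -0.15 and 0.29 beside 1.39, and since 1.58 in KOPTK1 and -1.81 in MOLT3 were its extremes.

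**Figure D2:**
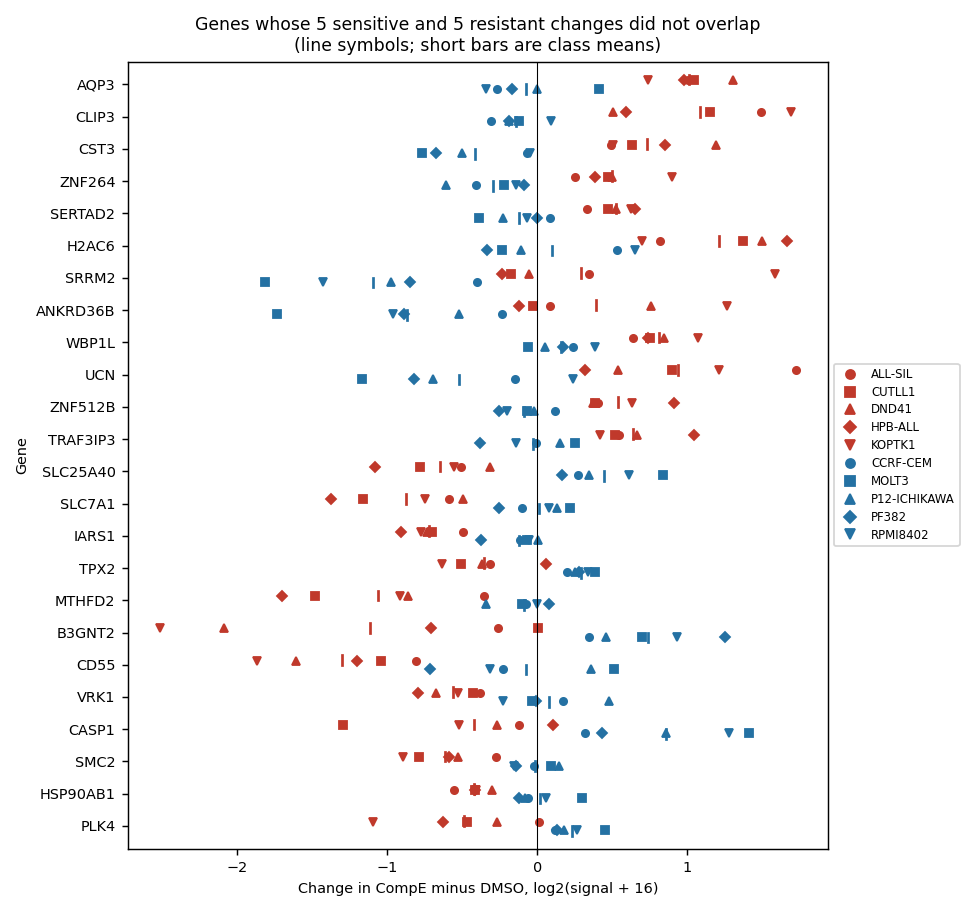
Change of each line in CompE, log2(signal + 16), for the 24 genes with the lowest p among those whose 5 sensitive changes (red) and 5 resistant changes (blue) did not overlap; symbols mark lines and short bars class means. AQP3 heads the 12 genes higher in the sensitive lines, at 0.74 to 1.30 against -0.34 to 0.41, and SLC25A40 heads the 12 lower ones.

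On the other side, 67 genes had sensitive changes that all lay below the resistant ones, and 12 of them are named. MTHFD2, a mitochondrial enzyme of folate metabolism, went from 228 to 175 in ALL-SIL, from 1231 to 430 in CUTLL1, from 1947 to 1064 in DND41, from 2149 to 650 in HPB-ALL and from 1560 to 820 in KOPTK1. Among the resistant lines it went from 2201 to 2086 in CCRF-CEM, from 1504 to 1400 in MOLT3, from 1535 to 1210 in P12-ICHIKAWA, from 1392 to 1470 in PF382 and from 1741 to 1737 in RPMI8402. Every sensitive line was lower in CompE and the resistant lines stayed near their vehicle levels, though P12-ICHIKAWA (-0.34) came close to ALL-SIL (-0.35). The difference was -0.97 ± 0.22 (limma adjusted p = 0.316). SLC7A1, the importer of arginine and lysine, changed by -1.38 to -0.50 in the sensitive lines and -0.26 to 0.22 in the resistant ones, a difference of -0.89 ± 0.18, while its other probe sets above the filter gave only -0.21 and -0.26. IARS1, which charges isoleucine onto its transfer RNA, ranged from -0.91 to -0.50 against -0.38 to 0.00, a difference of -0.60 ± 0.13. Within the sensitive lines MTHFD2, SLC7A1 and IARS1 each fell, by 1.06, 0.87 and 0.72 (adjusted p of 0.0036, 0.004 and 0.00172).

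SLC25A40, a mitochondrial carrier related to the glutathione importer SLC25A39, differed by -1.10 ± 0.21, with sensitive changes of -1.08 to -0.32 and resistant changes of 0.16 to 0.84 on opposite sides of 0. CD55, a membrane protein that blocks complement on the cell's own surface, differed by -1.23 ± 0.28; its sensitive changes ran from -1.87 to -0.81 and the resistant ones from -0.72 to 0.51, and its other probe set gave -0.52. B3GNT2, which extends sugar chains of glycoproteins, had the lowest difference of all genes, -1.85 ± 0.42, carried by DND41 (-2.09) and KOPTK1 (-2.52), while CUTLL1 stood at 0.01. CASP1, the protease that matures interleukin-1 beta, differed by -1.28 ± 0.33. Its other probe sets ranged from -0.65 to 0.44, and the only one of them above the filter gave 0.44, the opposite sign. The CASP1 signal in DMSO was low in CCRF-CEM (5.96), MOLT3 (7.47), P12-ICHIKAWA (5.61) and RPMI8402 (2.35), so their changes are less sure. In CompE these lines stood at 11.4, 46.3, 23.1 and 28.5. PF382, the remaining resistant line, went from 78.7 to 111.7. Among the sensitive lines, CUTLL1 went from 33.2 to 4.06. HSP90AB1, the constitutive HSP90 chaperone, showed a small and even shift, -0.55 to -0.30 in the sensitive lines and -0.12 to 0.30 in the resistant lines. The remaining 4 of these 12 genes were the spindle protein TPX2, described with the mitosis list, PLK4, the kinase that starts centriole copying (difference -0.72 ± 0.20), SMC2 of the condensin complex (-0.60 ± 0.16), and the chromatin kinase VRK1 (-0.64 ± 0.16).

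**Figure D3:**
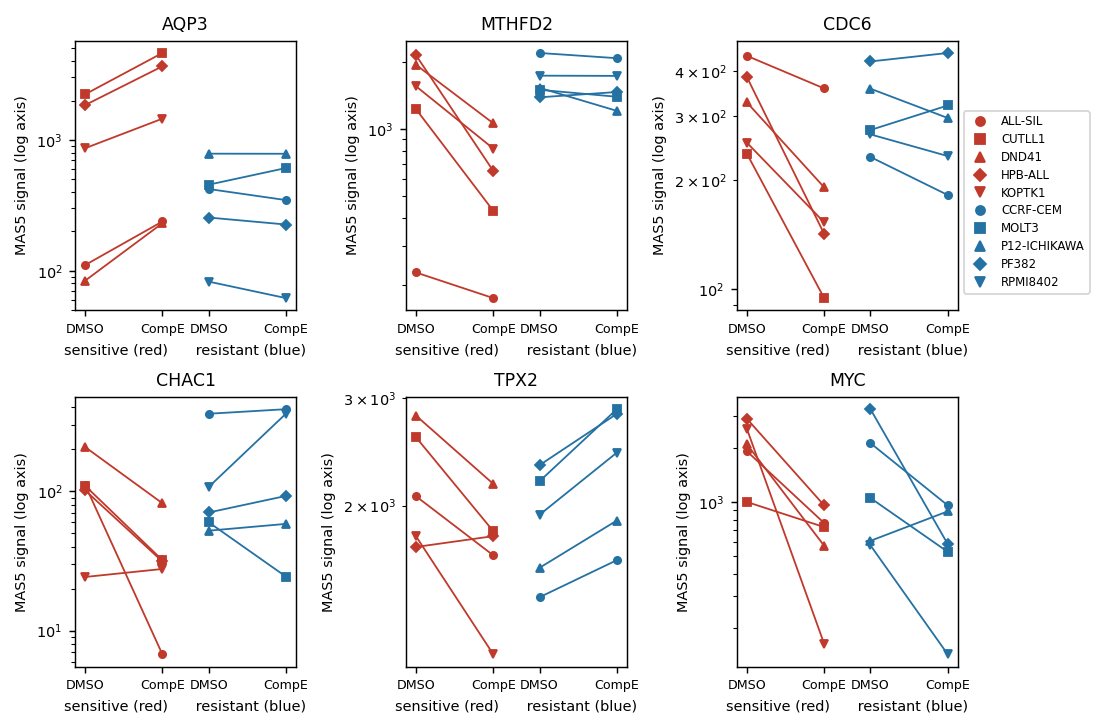
MAS5 signal on a log axis in DMSO and CompE for 6 genes, with 1 line joining the arrays of each cell line, sensitive in red and resistant in blue. AQP3 is higher in CompE in all 5 sensitive lines, MTHFD2 and CDC6 are lower in all 5, CHAC1 is lower in all but KOPTK1, TPX2 is higher in all 5 resistant lines, and MYC is lower in 9 of 10 lines.

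With all 10 lines, DNA replication genes gave the highest share of members under the unadjusted level of the pathway lists: 20 of 51 members tested (39.2%, against 3.65% of all genes) had an unadjusted p under 0.05 with the lower change in the sensitive lines, and 0 of the 51 passed the adjusted threshold. The median difference over the 51 was -0.38, beside 0.02 over all genes. CDC6, which loads the MCM helicase onto origins, went from 440 to 358 in ALL-SIL, from 236 to 94.2 in CUTLL1, from 327 to 191 in DND41, from 385 to 142 in HPB-ALL and from 253 to 153 in KOPTK1. On the resistant side it went from 231 to 182 in CCRF-CEM, from 275 to 321 in MOLT3, from 357 to 296 in P12-ICHIKAWA, from 425 to 448 in PF382 and from 267 to 233 in RPMI8402. All 5 sensitive lines were lower in CompE, most of all CUTLL1 and HPB-ALL, but CCRF-CEM (-0.32) lay below ALL-SIL (-0.29), so the classes overlapped. The difference for CDC6 was -0.75 ± 0.22 (adjusted p = 0.480). PRIM1, the catalytic primase subunit, differed by -0.78 ± 0.23, and RFC4 and RFC3, subunits of the clamp loader that places PCNA on DNA, by -0.74 ± 0.18 and -0.65 ± 0.20. Within the sensitive lines CDC6, PRIM1, RFC4 and RFC3 fell by 0.85, 0.89, 0.63 and 0.63 (adjusted p of 0.00785, 0.00785, 0.0118 and 0.0178), and in the resistant lines their changes lay between -0.11 and 0.11. ORC1, the origin recognition subunit (-0.99 ± 0.32), GINS2 of the replicative helicase (-0.75 ± 0.29), the helicase subunit MCM6 (-0.46 ± 0.16) and the sliding clamp PCNA (-0.37 ± 0.16), chosen after their values were seen, were among the others.

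The replication difference was carried by a pair of lines. The list's median change was -0.91 in CUTLL1 and -0.82 in HPB-ALL, but only -0.20 in DND41, -0.12 in KOPTK1 and -0.06 in ALL-SIL, which lay within the range of the resistant lines, -0.23 to 0.06. No member's classes were apart without overlap, which held for only 1.70% of all genes. Without CUTLL1 the count fell to 10 members, beside 258 of all genes lower at that level, against 281 with all lines. Without HPB-ALL it was 10 as well, beside 254 of all genes. Without both lines it was 2 lower and 2 higher members, beside 254 and 472 of all genes, with a median difference of -0.09. The count was 12 without P12-ICHIKAWA and 29 without KOPTK1, beside 216 and 358 of all genes. Without the 3 lines whose DMSO label names the other medium it was 4. In that last fit, with fewer lines, 82 of all 7695 genes were lower at that level. The list's median difference there was -0.39. HELLS, a chromatin remodeller of the SNF2 family chosen after its values were seen, was the only member with an unadjusted p under 0.05 in the other direction, at 1.24 ± 0.51. Its extremes were 1.37 in KOPTK1 and -2.95 in MOLT3, and the mean change was -1.64 in the resistant lines against -0.40 in the sensitive ones. With the change of the ACTB ratio as a covariate, 22 members were lower and 0 higher at that level, beside 277 and 287 of all genes.

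The promoter of RFC3 is shown because the proteins of the E2F family, which drive genes of S phase, bind motifs of this kind near the starts of replication genes. It is the stretch of 250 bases before the gene's start on chr13:33817899-33818148 (plus strand, sequence from RefSeq, GRCh38.p14), with the match in capitals.
RFC3: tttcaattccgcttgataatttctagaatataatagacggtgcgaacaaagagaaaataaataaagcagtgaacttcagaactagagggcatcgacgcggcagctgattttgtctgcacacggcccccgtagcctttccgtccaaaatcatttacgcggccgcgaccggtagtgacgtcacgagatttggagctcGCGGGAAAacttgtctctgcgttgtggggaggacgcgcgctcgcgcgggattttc
The capitals are TTTCCCGC on the minus strand, 55 bases before the start. TTTGGCGC or TTTCCCGC, searched on both strands, occurred in 15 of the 44 replication genes with a promoter in the table (34.1%), in 222 of 6413 tested genes (3.46%) and in 536 of all 27305 promoters (1.96%). RFC4, PRIM1 and CDC6 held neither motif in this window. A match describes letters in a window and is no evidence that a factor was bound in these cells.

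Mitosis genes differed by less, with a median difference of -0.25 and median class changes of 0.17 in the resistant and -0.04 in the sensitive lines. Of 35 tested, 9 (25.7%, against 3.65% of all genes) had an unadjusted p under 0.05 with the lower change in the sensitive lines, 0 had the opposite, and 33 had a difference below 0. The list's median change was 0.08 to 0.29 in the resistant lines and -0.35 to 0.11 in the sensitive ones, where HPB-ALL (0.11) lay among the resistant lines. TPX2, which activates Aurora A on the spindle, changed by -0.64 in KOPTK1, -0.51 in CUTLL1, -0.37 in DND41, -0.32 in ALL-SIL and 0.06 in HPB-ALL. In the resistant lines it changed by 0.20 in CCRF-CEM, 0.39 in MOLT3, 0.25 in P12-ICHIKAWA, 0.28 in PF382 and 0.33 in RPMI8402, a narrow band above every sensitive line, and the difference was -0.64 ± 0.14 (adjusted p = 0.316). CDK1, the kinase that drives entry into mitosis, differed by -0.76 ± 0.26, but spanned -1.48 in KOPTK1 to 0.46 in HPB-ALL within the sensitive class, and by -0.50 ± 0.18 without KOPTK1. KIF23, a motor of the midbody, differed by -0.55 ± 0.18 with no overlap of the classes. The count of 9 became 14 without KOPTK1, 13 without HPB-ALL, 4 without CUTLL1 and 4 without CCRF-CEM. In these fits 358, 254, 258 and 276 of all genes were lower, against 281 with all lines. The count was 1 without the 3 lines with the other medium label. In that last fit 82 of all 7695 genes were lower at that level, and the list's median difference was -0.20.

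**Figure D4:**
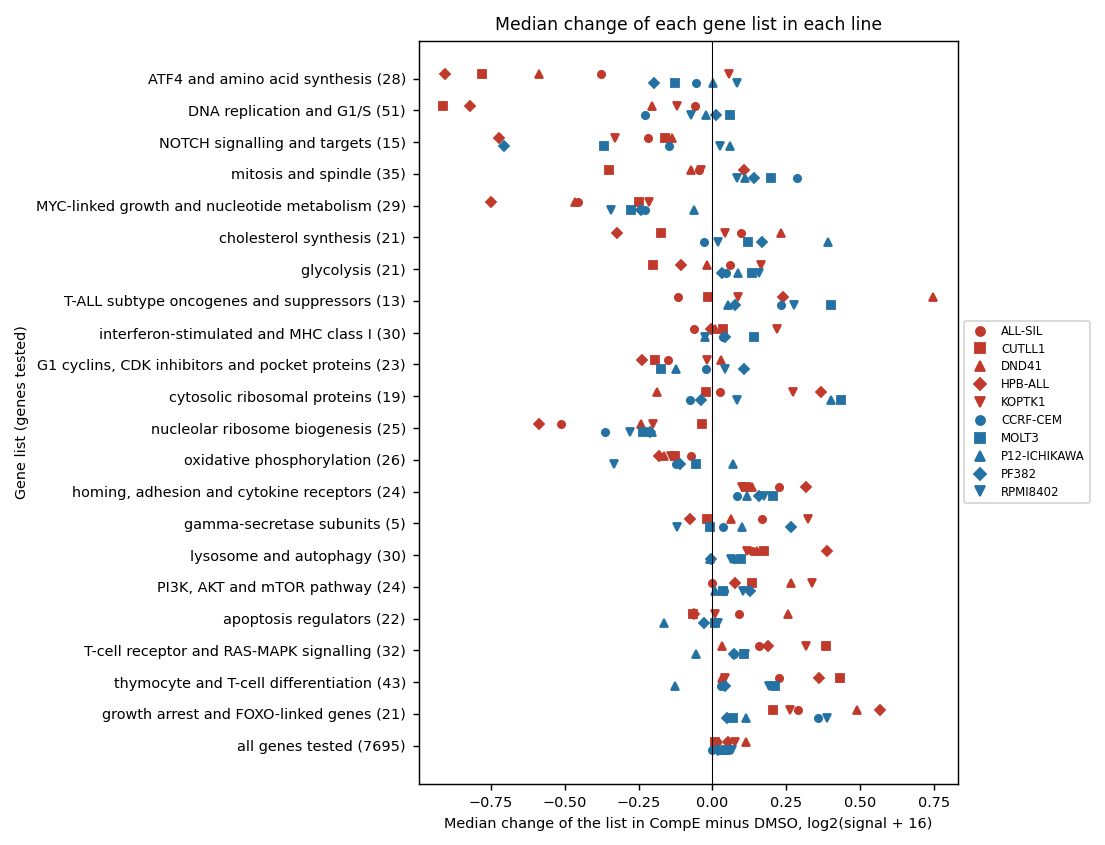
Median change in CompE of each gene list in each line, log2(signal + 16), with the number of genes tested in brackets, sensitive lines in red and resistant lines in blue, ordered by the median difference. The amino acid list sets 4 sensitive lines apart from the resistant ones while KOPTK1 lies at 0.06; the replication list sets only CUTLL1 and HPB-ALL apart, and NOTCH targets are lower in all sensitive lines and in 3 of 5 resistant ones.

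Amino acid genes gave the lowest median difference of the pathway lists. ATF4 is the transcription factor that cells use to raise amino acid uptake, serine synthesis and transfer RNA charging when amino acids or protein folding run short. Of 28 genes linked to it, 10 (35.7%, against 3.65% of all genes) had an unadjusted p under 0.05 with the lower change in the sensitive lines, 0 had the opposite, 0 passed the adjusted threshold, and the median difference was -0.47. The list's median change was -0.91 in HPB-ALL, -0.78 in CUTLL1, -0.59 in DND41, -0.38 in ALL-SIL and 0.06 in KOPTK1, and in the resistant lines it lay between -0.20 and 0.08. The first 4 lines lay below every resistant line, and KOPTK1 did not. The ACTB ratio of KOPTK1 in CompE was 9.76, and whether that ratio set the median of KOPTK1 was not tested. Without KOPTK1 the count was 20 of 28 with a median difference of -0.56, and with the ACTB ratio as a covariate it was 18. Over all 7695 genes, 358 and 277 were lower in these fits, against 281 in the main fit. In both fits the share was higher than that of the replication list (29 and 22 of 51). They are not separate checks, since the ACTB ratio changed most in KOPTK1 (1.56 log2, with DND41 next at 0.542). Without HPB-ALL the count was 6, beside 254 of all genes. Without both CUTLL1 and HPB-ALL it was 5 lower and 1 higher, beside 254 and 472 of all genes, with a median difference of -0.23. Without the 3 lines with the other medium label it was 5, with a median difference of -0.44. In that last fit 82 of all 7695 genes were lower at that level.

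CHAC1, which breaks down glutathione and is a textbook ATF4 target, went from 111 to 6.76 in ALL-SIL, from 110 to 32 in CUTLL1, from 208 to 82.1 in DND41, from 102 to 31.4 in HPB-ALL and from 24.3 to 27.7 in KOPTK1. In the resistant lines it went from 360 to 388 in CCRF-CEM, from 60 to 24.4 in MOLT3, from 52.1 to 58.4 in P12-ICHIKAWA, from 70.5 to 92.6 in PF382 and from 107 to 361 in RPMI8402. The 4 sensitive lines other than KOPTK1 had the lowest changes, MOLT3 was the only resistant line that was lower, and RPMI8402 was the highest. The difference was -1.50 ± 0.46 (adjusted p = 0.496) with all lines and -1.84 ± 0.41 (adjusted p = 0.196) without KOPTK1. CEBPG, a partner of ATF4, differed by -0.56 ± 0.17 with no overlap, and VLDLR, a lipoprotein receptor, by -0.55 ± 0.18. TRIB3, a pseudokinase that feeds back on ATF4 and was chosen after its values were seen, differed by -0.95 ± 0.32. ATF4 itself differed by -0.12 ± 0.18 and ASNS, the asparagine synthetase that is also an ATF4 target, by 0.29 ± 0.21, so the list did not move as a block.

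The promoter of CHAC1 is shown because it carries a half-site of the kind that ATF4 and C/EBP proteins bind. It is the stretch of 250 bases before the gene's start on chr15:40953221-40953470 (plus strand, RefSeq, GRCh38.p14), with the match in capitals.
CHAC1: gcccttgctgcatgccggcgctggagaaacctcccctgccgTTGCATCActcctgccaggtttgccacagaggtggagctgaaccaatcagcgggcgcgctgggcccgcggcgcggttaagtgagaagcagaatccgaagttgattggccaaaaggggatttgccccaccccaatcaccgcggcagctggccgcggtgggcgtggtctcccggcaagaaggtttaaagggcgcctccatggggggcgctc
The capitals are TGATGNAA on the minus strand, 209 bases before the start. That motif, searched on both strands, occurred in 4 of the 24 list members with a promoter in the table (16.7%), in 85 of 6413 tested genes (1.33%) and in 870 of all 27305 promoters (3.19%). MTHFD2, CEBPG and VLDLR did not hold it in this window.

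**Figure D5:**
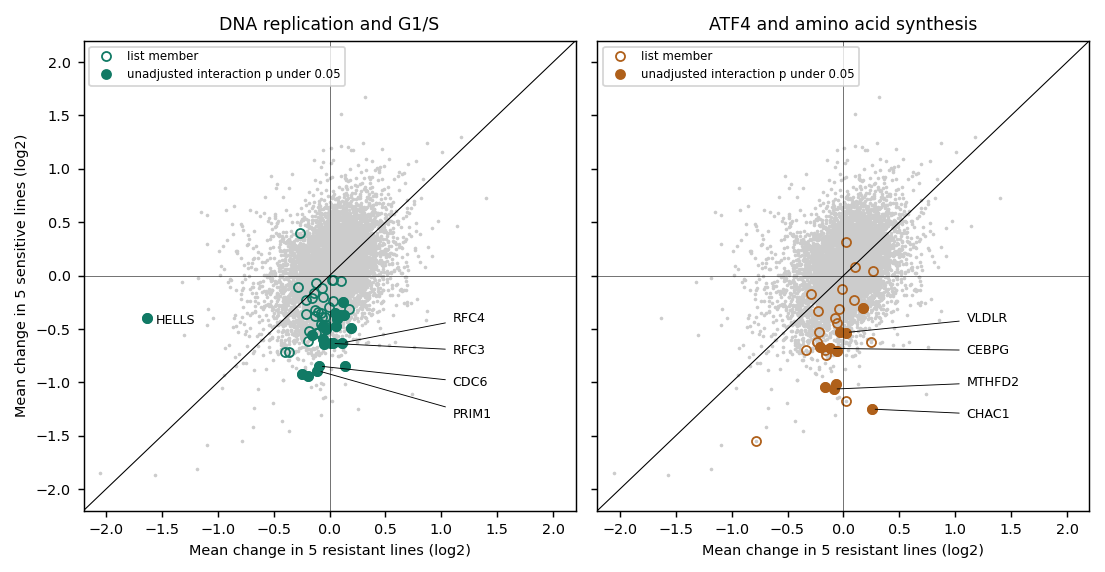
Mean change of the 5 sensitive lines against mean change of the 5 resistant lines, log2(signal + 16), for all 7695 genes in grey, with members of the replication list (left) and the amino acid list (right) as circles, filled at an unadjusted p under 0.05. Points below the diagonal have the lower change in the sensitive lines, as do 47 of 51 replication genes; HELLS is the filled exception.

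The direct readout of the inhibitor did not separate the classes. HES1, the best known NOTCH target, changed by -3.51 in CUTLL1, -3.04 in HPB-ALL, -1.83 in KOPTK1, -0.66 in DND41 and -0.28 in ALL-SIL. Among the resistant lines it changed by -3.52 in PF382, -1.78 in CCRF-CEM, -1.46 in MOLT3, -0.67 in RPMI8402 and -0.40 in P12-ICHIKAWA. HES1 was lower in CompE in 10 of 10 lines and the classes spanned nearly the same range. The difference was -0.30 ± 0.62 (95% interval -1.62 to 1.02; adjusted p = 0.914), an interval wide enough to hold a difference of 1 in either direction.

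MYC, the growth regulator under a NOTCH1-bound enhancer in T cells, changed by -3.85 in KOPTK1, -1.85 in DND41, -1.59 in HPB-ALL, -1.31 in ALL-SIL and -0.46 in CUTLL1. In the resistant lines it changed by -2.46 in PF382, -1.90 in RPMI8402, -1.14 in CCRF-CEM, -0.97 in MOLT3 and 0.53 in P12-ICHIKAWA. The lowest and the highest lines were KOPTK1 and P12-ICHIKAWA, and the other 8 overlapped. The difference was -0.62 ± 0.56 (95% interval -1.81 to 0.56; adjusted p = 0.765), -0.11 ± 0.44 without KOPTK1, and 0.37 without the 3 lines with the other medium label. NOTCH3, a receptor that NOTCH1 itself induces, differed by -0.49 ± 0.46 (95% interval -1.47 to 0.50), with CUTLL1 (-0.11) and CCRF-CEM (0.23) near 0 and MOLT3 (-2.34) lowest. CR2, the complement receptor, differed by 0.20 ± 0.81, with an interval of -1.51 to 1.92. RASGRP1, an activator of RAS, was higher in CompE in all 10 lines, with a difference of 0.35 ± 0.23, and LTB, the lymphotoxin beta chain, in 9 of 10, with a difference of 0.15 ± 0.46. CDK6, a G1 kinase, was lower in all 10, with a difference of -0.07 ± 0.30.

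Of 15 NOTCH genes tested, 0 had the lower change in the sensitive lines at an unadjusted p under 0.05 (background 3.65%) and 1, IGF1R, had the higher (background 4.93%). IGF1R, the receptor for insulin-like growth factor 1, differed by 1.26 ± 0.44, with 1.39 in KOPTK1 and -2.48 in MOLT3 at the extremes, and its other probe set above the filter gave 0.20. The gamma-secretase subunits themselves had 0 of 5 members under that level.

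MYC-linked growth genes leaned towards the lower change in the sensitive lines, with 7 of 29 (24.1%, background 3.65%) and a median difference of -0.23. HSPE1, a mitochondrial chaperonin, was lower in CompE in all 10 lines, with a difference of -0.43 ± 0.17 (-0.32 ± 0.16, unadjusted p = 0.0566, without KOPTK1). IMPDH2, which makes guanine nucleotides, differed by -0.62 ± 0.25, with HPB-ALL (-1.78) lowest and KOPTK1 (0.08) among the resistant lines. Without P12-ICHIKAWA, 0 of the 29 had an unadjusted p under 0.05, while 216 of all 7695 genes had one with the lower change. The list's median difference was then -0.17. Nucleolar ribosome biogenesis genes were lower in both classes, with median changes of -0.31 in the sensitive and -0.33 in the resistant lines, a median difference of -0.02, and 2 of 25 (8%) under that level. Cytosolic ribosomal proteins had 0 of 19.

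In the PI3K pathway, 4 of 24 genes (16.7%, against 4.93% of all genes) had the higher change in the sensitive lines at an unadjusted p under 0.05 and 0 the lower. They were IGF1R, PDPK1, PIK3IP1 and PIK3R1. PDPK1, the kinase that activates AKT, changed by 0.07 to 1.62 in the sensitive lines and by -0.75 to -0.29 in the resistant ones, which did not overlap; the difference was 1.03 ± 0.27 with KOPTK1, the highest line, and 0.76 ± 0.20 without it. PIK3IP1, an inhibitor of PI3K, was 0.49 to 1.30 in the sensitive lines and -0.17 to 0.53 in the resistant ones, a difference of 0.61 ± 0.22. Its other probe set gave 0.09. FOXO3, a transcription factor that AKT keeps out of the nucleus, differed by 0.68 ± 0.28, from 0.05 in ALL-SIL to 1.71 in KOPTK1 within the sensitive class. Without KOPTK1 the difference was 0.42 ± 0.21 for FOXO3 (unadjusted p = 0.0572) and 0.40 ± 0.22 for PIK3R1 (unadjusted p = 0.0848), so neither kept an unadjusted p under 0.05. With all lines, PIK3IP1 and FOXO3 made 2 of 21 growth arrest and FOXO-linked genes (9.52%) under that level. Among the G1 genes 1 of 23 was lower and 1 higher, the inhibitor CDKN1B differed by -0.05 ± 0.15 and CCND3, a D-type cyclin, by 0.01 ± 0.17.

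Among T-cell genes, 5 of 43 differentiation genes (11.6%, against 4.93%) had the higher change in the sensitive lines at an unadjusted p under 0.05 and 0 the lower. CD2, an adhesion molecule of T cells, changed by 0.47 in ALL-SIL, 1.13 in CUTLL1, 0.94 in DND41, 1.32 in HPB-ALL and 0.89 in KOPTK1. On the resistant side it changed by -0.98 in CCRF-CEM, 0.43 in MOLT3, 0.37 in P12-ICHIKAWA, 0.44 in PF382 and -0.40 in RPMI8402. The classes did not overlap, though PF382 came close to ALL-SIL, and the difference was 0.98 ± 0.27 (adjusted p = 0.458). SATB1, a chromatin organiser of thymocytes, differed by 0.78 ± 0.29 and the coreceptor CD4 by 0.80 ± 0.30, both with overlap. Of the T-cell receptor genes, 3 of 32 (9.38%) were higher, NFATC1, NR4A1 and DUSP2, but 2 of the 3 other probe sets of NFATC1 above the filter gave -0.41 and -0.40, and the one of NR4A1 gave -0.10. Of the homing genes, 4 of 24 (16.7%) were higher. ITGAL, the LFA-1 alpha chain, differed by 0.74 ± 0.23, and the chemokine receptors CCR9 and CCR7 by 1.29 ± 0.44 and 0.70 ± 0.32, with CCR9 at 2.54 in CUTLL1 and -1.58 in RPMI8402. Without KOPTK1, CCR7 differed by 0.54 ± 0.32 (unadjusted p = 0.107), and 2 homing genes were higher, beside 419 of all 7695 genes.

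Among apoptosis regulators 2 of 22 were higher and 2 lower (9.09% each, against 4.93% and 3.65%). MCL1, which keeps cells alive, differed by 0.66 ± 0.16, but its 4 other probe sets gave -0.13 to 0.32. PMAIP1 (NOXA), which antagonises MCL1, was lower in CompE in all 10 lines and more so in the sensitive ones, with a difference of -0.56 ± 0.18 and -0.75 from its other probe set. The death receptor FAS differed by -0.73 ± 0.28, with RPMI8402 at 1.38, and its 3 other probe sets gave -1.24 to -0.63. BCL2 differed by -0.16 ± 0.20. Lysosome and autophagy genes had 5 of 30 (16.7%) higher, among them ULK1, the kinase that starts autophagy, which was 0.66 to 0.95 in the sensitive lines and 0.06 to 0.66 in the resistant ones, without overlap, a difference of 0.50 ± 0.18. GABARAPL1, a protein of autophagosome membranes, differed by 0.80 ± 0.25. Cholesterol and lipid genes had 5 of 21 (23.8%) lower. The fatty acid desaturase SCD differed by -0.65 ± 0.19, with -1.71 to -1.11 from its 3 other probe sets. The cholesterol count fell to 1 without HPB-ALL and to 1 without P12-ICHIKAWA, where 254 and 216 of all 7695 genes were lower. Oxidative phosphorylation (1 of 26 higher), glycolysis (1 of 21 lower), T-ALL oncogenes and suppressors (1 of 13 each way) and interferon-stimulated genes (0 of 30) were near the background.

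Without KOPTK1, with 4 sensitive lines against 5, 1 gene passed the adjusted threshold. It was AQP3, at 1.16 ± 0.17 (limma adjusted p = 0.0413; exact permutation p = 0.00794, the smallest reached by any gene without KOPTK1). The call depended on the lines and probe sets used. Leaving out another single line instead gave AQP3 limma adjusted p from 0.0511 (MOLT3) to 0.53 (P12-ICHIKAWA). With all lines and the mean of its probe sets the difference was 0.76 (limma adjusted p = 0.406). Without KOPTK1, 777 genes had an unadjusted p under 0.05, of which 419 had the higher and 358 the lower change in the sensitive lines. Of these 777, 457 were among the 660 found with all lines, all in the same direction. Genes of serine and amino acid metabolism moved up the order. SLC7A5, the leucine importer, changed by -2.56 to -1.49 in the 4 sensitive lines and by -1.28 to -0.17 in the resistant ones, while KOPTK1 stood at 0.47, and its difference went from -0.77 ± 0.43 to -1.27 ± 0.24 (adjusted p = 0.165). PHGDH, the first enzyme of serine synthesis, SHMT2, which passes serine's carbon to folate, and PCK2, the mitochondrial PEP carboxykinase, were chosen after their values were seen. They differed by -1.28 ± 0.24, -0.96 ± 0.19 and -1.26 ± 0.26 without KOPTK1 (adjusted p of 0.165, 0.165 and 0.178), and by -0.87, -0.65 and -0.86 with it. The 3 genes were lower in CompE in all 4 sensitive lines and higher in KOPTK1, at 0.57 to 0.89. MTHFD2, SLC7A1 and IARS1 were close to their values with all lines, at -1.01, -0.92 and -0.59.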

How the data were processed

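RNA of 10 T-ALL lines in DMSO or CompE was measured on 20 Affymetrix arrays. The deposited values are linear MAS5 signal intensities, per the submitters' processing notes, whose version is not given in the sources used here. The trimmed mean averaged 250 over the arrays when this was checked, and array medians ran from 54.7 to 74.8. The scaling of the deposited values was kept, so a change in total RNA per cell cannot be seen. Of 22277 probe sets, 62 controls, 1043 with several genes and 2108 unlisted ones were left out. Per gene the brightest probe set was used, and genes under the 40th percentile (signal about 32.5) were dropped, which left 7695. Log2(signal + 16) was fitted with limma 3.58.1 under R 4.3.3, using each cell line as its own fixed block, the treatment by class term, an intensity trend and Benjamini-Hochberg adjustment at 0.05, two-sided (8 residual and 7.49 prior degrees of freedom). Adding 16 understates changes of dim genes. The labels name each array's line, which gives the pairing. Exact permutation tests used all 252 splits of the lines, and 126 without KOPTK1. The code was tested on simulated data (5 rounds, 200 changed genes each): 92% of differences of 2 were recovered, 5.56% of calls were false, and 0 calls were made with no effect. The members and lists were chosen with earlier results of these data known. Named genes are, per direction, the 12 genes with lowest p among those whose classes did not overlap, up to 4 genes of lowest p per list, and a fixed set; others are marked. No array columns were left unused. The number of lines limits precision.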

Additional observations from a re-analysis of the deposited data

Results flagged for a closer look

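Values of 1 line stood apart from the other 4 of its class for 19 of the named genes, 1 quality measure and 3 list medians, by the gap to the nearest line over the range of the class (above 0.71). Chance flags about 1 in 20 groups, and each of the 129 named genes was looked at in both classes. In the sensitive class KOPTK1 stood apart for PDPK1 (1.62), PIK3R1 (1.03), SDHC (1.16), IRF7 (0.72), BST2 (0.85), ATG12 (0.38) and CDKN1B (-0.27), and for its GAPDH 3' to 5' ratio (log2 change 0.893), beside its high ACTB ratio. CUTLL1 stood apart for PSEN2 (-0.92), APEX1 (0.0374) and POLR1C (0.0234), HPB-ALL for DHCR7 (-1.95), PTCRA (-1.77) and the median of the lysosome list (0.388), and DND41 for IFITM2 (-0.44). In the resistant class RPMI8402 stood apart for FAS (1.38) and CCR9 (-1.58), MOLT3 for CEBPG (-0.37) and IRS1 (0.82), PF382 for TCF3 (-0.34), and CCRF-CEM for IL7R (-2.07). P12-ICHIKAWA stood apart for the medians of the apoptosis list (-0.164) and the T-cell receptor list (-0.056).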

How the results depend on the processing

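Of 3072 values of the 129 named genes under 24 alternatives, 3013 kept direction and side of the threshold, 2 passed it and 57, in 18 genes, changed sign. The count of genes past the threshold was 0 in every alternative but 2: it was 1 (SLC25A40, adjusted p = 0.0475) with line as a random replicate block and 1 (AQP3) without KOPTK1. It ranged from 0 to 1 over the lines left out in turn. Without the replicate block, which the pairing by line calls for, 27 genes were higher and 22 lower at an unadjusted p under 0.05. Leaving out the 3 lines with the other medium label gave 107 higher and 82 lower. Leaving out each line in turn gave 228 to 424 higher, with 228 without MOLT3 and 249 without P12-ICHIKAWA.

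Most of the genes whose sign turned had small differences, but MYC (-0.62), NFATC1 (0.68) and TCF3 (0.47) did not. Without the 3 lines with the other medium label the differences were -0.0759 for PSEN2, -0.0226 for APH1A, 0.00693 for RPL19, 0.23 for HES1, 0.37 for MYC, 0.0880 for PTCRA, -0.41 for LTB, -0.19 for CCND3 and 0.0704 for SKP2. Quantile normalization gave -0.0366 for APH1A, -0.0294 for IRS1 and -0.0406 for BCL2L11. The ACTB covariate gave -0.14 for APH1A, -0.0521 for CCND3 and 0.0699 for CDKN1B, the mean of probe sets -0.0116 for TCF3, -0.0264 for NFATC1 and -0.0826 for TRIB2, a pseudocount of 64 -0.0771 for CR2 and -0.0395 for BCL2L11, and median centring -0.00523 for CCND3. With a line left out, values ran from -0.11 to 0.14 for APH1A, -0.17 to 0.12 for BCL2L11, -0.094 to 0.11 for CCND3, -0.23 to 0.10 for CDK6, -0.0992 to 0.0608 for CDKN1B, -0.48 to 0.73 for CR2, -0.79 to 0.11 for HES1, -0.16 to 0.16 for IRS1, -0.12 to 0.61 for LTB, -0.12 to 0.25 for PSEN2, -0.52 to 0.0809 for PTCRA, -0.29 to 0.0488 for SKP2 and -0.0811 to 0.48 for TXNIP. The cause was not tested. Signals near or under the filter of 32.5, such as that of CHAC1 in ALL-SIL in CompE (6.76), are noisy in MAS5, and their changes are less sure. The same holds for CLIP3 and CST3 in DMSO in ALL-SIL, DND41 and KOPTK1. It also holds for CASP1 in DMSO in CCRF-CEM, MOLT3, P12-ICHIKAWA and RPMI8402.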

Other observations

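The genes with the highest differences of all, outside every list, were set by KOPTK1 and MOLT3; they were picked after their values were seen. ATP8B1, a lipid flippase, differed by 1.75 ± 0.58, with 3.30 in KOPTK1 and -2.53 in MOLT3, while the other 4 sensitive lines lay between -0.11 and 0.64. ZC3H7B, a zinc finger protein, stood at 3.34 in KOPTK1 and -2.04 in MOLT3, ZNF721 at 3.72 and -2.22, TNPO1, a nuclear import receptor, at 3.81 and -1.36, and LRRFIP1 at 3.29 and -2.21. KOPTK1 is the line with the ACTB ratio of 9.76 in CompE. The same pair of lines gave the extremes of HELLS, IGF1R and SRRM2. The ratio's part in these values was not tested.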
